A study of Drosophila melanogaster with 2 samples.

Results

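In the compact genome of Drosophila melanogaster many genes are arranged head to head, and the stretch between their starts serves as the promoter of both. The peaks described here lie in such stretches. They come from chromatin immunoprecipitation of CG11085, a homeobox gene whose protein carries a homeodomain, a DNA-binding domain of developmental regulators. The conservative peak list over both replicates held 2610 peaks on the chromosome arms, and 527 of them were members. A member is a peak whose summit lay 1 to 500 bp upstream of the nearest protein-coding transcription start site (TSS), where another protein-coding gene on the opposite strand started within 1 kb upstream of that TSS and pointed away from it. The rule used positions alone, not peak height.

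The study has 1 group of 2 biological replicates. Both are whole embryos of 0 to 24 hours from the strain CG11085-GFP, transgenic flies that make CG11085 fused to eGFP, and both were precipitated with an antibody against GFP. Sonication gave chromatin of 200 to 800 bp, as the labels state it. All cell types and ages in that range were mixed, so a stronger peak in all cells and a peak in more of the cells cannot be told apart. No library from flies without the fusion was analysed here, so the share of each peak that the antibody or open chromatin would give without CG11085 was not tested. Nothing is compared between conditions, and with 2 samples no test over samples could be made. Shares below carry 95% Wilson intervals, which cover counting error over peaks, gaps or genes only, and the thresholded list of each replicate shows how far the samples differ.

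Divergent promoters are known in flies as places where housekeeping genes cluster. The DNA replication-related element (DRE), bound by the factor DREF, and the insulator protein BEAF-32, which recognises the core word CGATA, are known at many of them. Homeodomains typically contact A/T-rich words with a TAAT core. The reference sequence at strong members shows how these features lie at single sites.

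Of the 9 strongest members, 8 are given below as the plus strand of dm6, from 100 bp to the left of the summit to 100 bp to its right, cut where a transcript begins. Capitals mark the BEAF-32 core CGATA, the homeodomain word TAATTA, its variant TAATTG and the promoter motif 7 word CANCNCTA, on either strand. They show sites with several such words beside sites with none.
Ugalt/eIF2Bbeta, chrX:2703853-2703993: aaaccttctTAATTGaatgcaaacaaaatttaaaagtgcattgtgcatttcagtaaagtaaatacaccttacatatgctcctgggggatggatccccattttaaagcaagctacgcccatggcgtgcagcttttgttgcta
Tcs5/CHMP2B, chr3L:5139397-5139597: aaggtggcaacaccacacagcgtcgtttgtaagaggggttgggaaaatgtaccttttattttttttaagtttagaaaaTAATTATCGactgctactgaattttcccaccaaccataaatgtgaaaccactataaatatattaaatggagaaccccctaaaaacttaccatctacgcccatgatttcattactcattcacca
CG7601/CIA30, chr3R:29736746-29736944: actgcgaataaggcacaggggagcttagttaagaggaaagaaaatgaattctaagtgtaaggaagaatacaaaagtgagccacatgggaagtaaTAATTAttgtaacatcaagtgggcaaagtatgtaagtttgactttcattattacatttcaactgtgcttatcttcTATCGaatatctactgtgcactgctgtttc
CG5611/Mtl, chr3R:27636084-27636284: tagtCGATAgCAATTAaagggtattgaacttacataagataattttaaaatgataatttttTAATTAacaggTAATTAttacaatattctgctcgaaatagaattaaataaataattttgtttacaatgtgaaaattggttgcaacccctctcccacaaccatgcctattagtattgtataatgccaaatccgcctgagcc
Art3/mRpS10, chr3R:15229434-15229634: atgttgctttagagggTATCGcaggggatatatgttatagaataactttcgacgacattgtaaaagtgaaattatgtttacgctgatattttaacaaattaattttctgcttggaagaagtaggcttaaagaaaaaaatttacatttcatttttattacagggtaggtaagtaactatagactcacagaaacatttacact
Atat/Shc, chr3L:9426783-9426983: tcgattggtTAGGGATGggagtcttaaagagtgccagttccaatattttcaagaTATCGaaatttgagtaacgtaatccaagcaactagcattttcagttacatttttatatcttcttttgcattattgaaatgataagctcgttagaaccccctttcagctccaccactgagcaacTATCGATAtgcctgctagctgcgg
CG13390/CG17294, chr2L:8376798-8376979: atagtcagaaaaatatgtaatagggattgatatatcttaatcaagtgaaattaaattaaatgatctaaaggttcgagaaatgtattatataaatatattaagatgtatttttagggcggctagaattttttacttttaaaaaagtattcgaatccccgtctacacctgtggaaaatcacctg
CenG1A/mRpS23, chr2L:13835356-13835556: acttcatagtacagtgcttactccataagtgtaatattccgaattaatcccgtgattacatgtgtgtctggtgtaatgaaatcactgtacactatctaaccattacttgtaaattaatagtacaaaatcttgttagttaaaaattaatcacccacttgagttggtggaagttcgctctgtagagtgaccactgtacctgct

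In the Tcs5/CHMP2B gap a TAATTA word and a reversed BEAF-32 core shared bases close to the summit, which is the base in the middle of the printed stretch. The CG5611/Mtl stretch held 2 TAATTA words, 1 TAATTG and 1 CGATA, with a G+C content of 29.4%. The Atat/Shc stretch held 3 CGATA words, a pair of them within 1 DRE, and 1 motif 7 word at a G+C content of 39.3%. The stretches of CG13390/CG17294 and CenG1A/mRpS23 held none of the 4 words. Among these 8 sites high signal was present with and without each word.

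Peaks were dense in these stretches. Positions that meet the rule make up 0.738% of the arms, 988 kb in all, and carried 0.533 peaks per kb. Positions 1 to 500 bp upstream of unpartnered starts, meaning protein-coding TSSs with no divergent partner within 1 kb, make up 4.42% of the arms and carried 0.109 peaks per kb in 643 peaks. The arms as a whole carried 0.0195 peaks per kb. The regions that the authors ranked but did not list were spread almost evenly, at 1.10 per kb between divergent starts, 0.963 upstream of unpartnered starts and 1.05 over the arms. Listed peaks were thus unevenly spread over these classes of position, and unlisted regions almost evenly. Unlisted regions are the ranked ones left once listed peaks are removed, so they do not give the spread of all ranked regions.

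Of the 1610 ranked regions between divergent starts, 527 were in the conservative list, which is 32.7% (30.5 to 35.1%). Among all 142665 ranked regions on the arms the share was 1.83%, and among the 6339 upstream of unpartnered starts it was 10.1% (9.42 to 10.9%). Counted by site, 468 of 2511 gaps between adjacent divergent starts held a listed summit, or 18.6% (17.2 to 20.2%). Of 13217 unpartnered starts 611 did, or 4.62% (4.28 to 4.99%). These units are unlike, since a gap joins a pair of starts while each alternative TSS of a gene counts as its own unpartnered start. With only the 5'-most TSS of each gene the shares were 18.7% of gaps and 5.18% of unpartnered starts. The list of replicate 1 gave 15.9% of gaps and 3.93% of unpartnered starts, and the list of replicate 2 gave 13.9% and 3.25%. The order was the same in both replicates, and the distance between the classes exceeded the distance between the replicates. Members made up 45% (42.2 to 47.9%) of the 1170 summits within 500 bp upstream of a protein-coding TSS. They held 9 of the 20 strongest peaks on the arms and 28 of the strongest 100. Members were 25.8% (23.2 to 28.6%) of the strongest 1000 peaks and 16.7% (15 to 18.6%) of the remaining 1610.

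The 527 members stood in 509 pairs of starts and touched 999 distinct genes. In 486 of them no other protein-coding TSS lay between both starts. The other 41 had a further protein-coding TSS inside the pair, as at CG5098/CG5757, p38a/CG6178 and CG10413/CG31789, and are not counted in the 468 gaps. A start of another gene type alone lay between in 5 members, among them mRpL41/CG8079.

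The strongest member lay between Ugalt, which encodes a Golgi transporter of UDP-galactose, and eIF2Bbeta, a subunit of the exchange factor for the translation initiation factor eIF2. Its signal, the authors' value on a scale that is not stated, was 1227 in replicate 1, 846 in replicate 2 and 2058 in the pooled data. The summit was 41 bp from the Ugalt start in a gap of 719 bp, so it stood at the Ugalt end. The next lay between mRpL41, a mitochondrial ribosomal protein gene, and CG8079 on arm 2R, where replicate 1 gave 1097, replicate 2 gave 691 and the pooled data 1778. Its summit was 121 bp from the mRpL41 start in a gap of 762 bp, which also holds a start of another gene type. In both of these long gaps the summit lay close to 1 end.

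The gaps of the other 10 of the 12 strongest members ran from 202 to 492 bp. Tcs5, which takes part in a universal tRNA modification, and CHMP2B, of the membrane-cutting ESCRT-III complex, were 224 bp apart, and the signal was 767 in replicate 1 and 645 in replicate 2. CG7601 and CIA30, an assembly factor of respiratory complex I, were 220 bp apart, with 796 and 546 in the same order. The CG5611/Mtl gap was 352 bp and had 756 and 506. All of these summits were 99 to 124 bp from the nearer start, close to the middle of the gap in the first 2 cases.

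Art3, an arginine methyltransferase gene, and mRpS10, of the small mitochondrial ribosomal subunit, were 257 bp apart, with 756 in replicate 1 and 494 in replicate 2. Atat, the alpha-tubulin acetyltransferase gene, and Shc, which encodes an adaptor of receptor tyrosine kinases, were 252 bp apart, with 519 and 506. The latter was the strong member with the most even replicates, at a ratio of 1.02. CG13390/CG17294 had 634 and 387 in a gap of 238 bp, and CenG1A/mRpS23, with an Arf GTPase-activating protein gene on 1 side, had 613 and 353 in a gap of 492 bp. Lamtor3, of the lysosomal Ragulator complex, and fws, a Golgi tethering subunit, were 202 bp apart and had 426 and 342. Arl1, a Golgi GTPase gene, and brm, the ATPase of a chromatin remodelling complex, were 266 bp apart and had 412 and 292. CG3552/CG3437 had 378 and 286 in a gap of 243 bp. Every one of these 12 members was in the thresholded lists of both replicates and higher in replicate 1.

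Over all 527 members the pooled signal had a median of 145, with quartiles of 105 and 219 and a range of 3.40 to 2058. The median was 88.6 in replicate 1, where values ran from 41.8 to 1227, and 58.0 in replicate 2, where they ran from 25.1 to 846. Replicate 1 was higher at 482 members, 91.5% of them, and the median ratio of replicate 1 to replicate 2 was 1.49. Upstream peaks of unpartnered starts had a pooled median of 137 with quartiles of 95.8 and 213, medians of 86.8 and 55.9 in replicates 1 and 2, and a median ratio of 1.54. The medians of both classes differed by less than the replicates did. The other 1440 peaks on the arms had a lower pooled median of 115. In 17 members the pooled signal was below that of both replicates, and all 17 shared a replicate's region with a stronger listed peak. For such members a replicate value is that of the shared region, so pooled and replicate values cannot be set against each other. Pyroxd1/CG10747 had a pooled signal of 4.04 but carried 155 in replicate 1 and 131 in replicate 2. The stronger CG10747/Pyroxd1 peak, at 271, had the same replicate values. Such shared values remain in the replicate medians, the ratios and the count of 482.

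**Figure D1:**
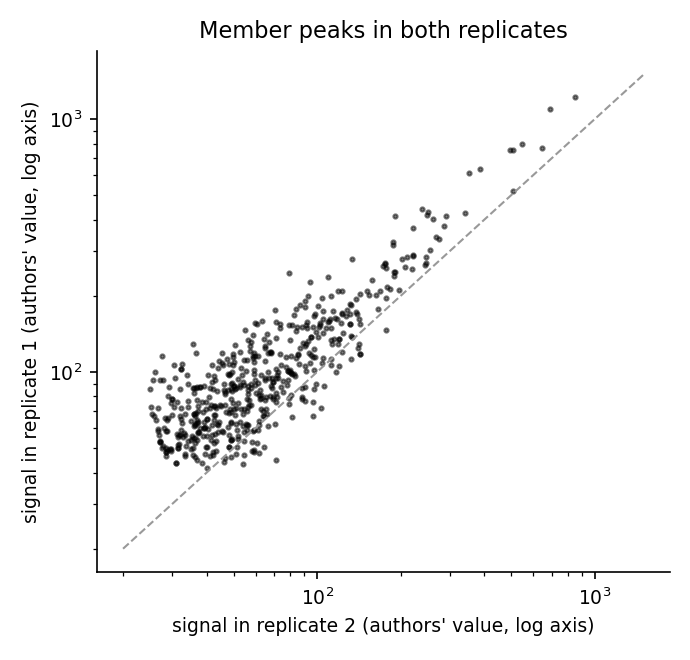
Signal of the 527 member peaks in replicate 2 (x axis) and replicate 1 (y axis), the authors' values on log axes, 1 point per peak, with the line of equal signal dashed. Most points, 482 of 527, lie above the line, and the spread around it is widest at low signal.

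The thresholded list of replicate 1 overlapped 398 members by at least 1 bp, 75.5% of them, and that of replicate 2 overlapped 374, or 71.0%. For peaks of unpartnered starts the shares were 73.3% and 64.7%. Both lists held 324 members, 74 were in that of replicate 1 alone, 50 in that of replicate 2 alone, and 79 passed only when both replicates were compared. The ratio of replicate 1 to replicate 2 was highest at CG14286/CG6005, where the signal was 116 against 27.6, a ratio of 4.19. It was next highest at Polr3E/CG10584, RpS12/Adk2 and rno/mri, at 3.85, 3.64 and 3.61. Polr3E encodes a subunit of RNA polymerase III and RpS12 a ribosomal protein. The ratio was lowest at Vha68-1/mTor, a proton pump subunit beside the growth-regulating kinase, with 44.8 against 71.0, a ratio of 0.632. It was 0.694 at mbc/Nup98-96, 0.696 at Sec61alpha/Daxx and 0.774 at Miro/spas. The highest replicate signal among these 8 was 129, at RpS12/Adk2, so all were weak or moderate members.

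The share of gaps that held a peak varied with their length. Only 4.81% (3.13 to 7.31%) of the 416 gaps of 1 to 100 bp and 9.01% (6.42 to 12.5%) of the 344 gaps of 101 to 200 bp held one. The share was 30.1% (26.3 to 34.1%) in the 519 gaps of 201 to 300 bp and 26.1% (21.9 to 30.8%) in the 372 gaps of 301 to 400 bp. It then fell through 23.7% and 21.7% to 14.8% at 601 to 800 bp and 15.3% (10.5 to 21.7%) at 801 to 1000 bp. The step between gaps below and above 200 bp was present in both replicates, from 9.59% to 25.8% in the list of replicate 1 and from 5.81% to 25.2% in that of replicate 2. Members had a median gap of 346 bp, with a range of 42 to 984 bp, and all 2511 gaps had a median of 297 bp.

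Short gaps also offer fewer bases to a summit. Per kb of sequence, gaps of 1 to 100 bp carried 0.84 member peaks, those of 101 to 200 bp 0.631 and those of 201 to 300 bp 1.15. The density fell to 0.772 at 301 to 400 bp, 0.419 at 501 to 600 bp and 0.177 at 801 to 1000 bp. The fall in longer gaps was present in each replicate's own list, from 0.965 at 201 to 300 bp to 0.149 at 801 to 1000 bp for replicate 1 and from 0.952 to 0.132 for replicate 2. The shortest class differed between the replicates, with 0.84 per kb for replicate 1 and 0.252 for replicate 2. These came from 20 and 6 gaps with a peak, so the place of this class in the order is uncertain.

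**Figure D2:**
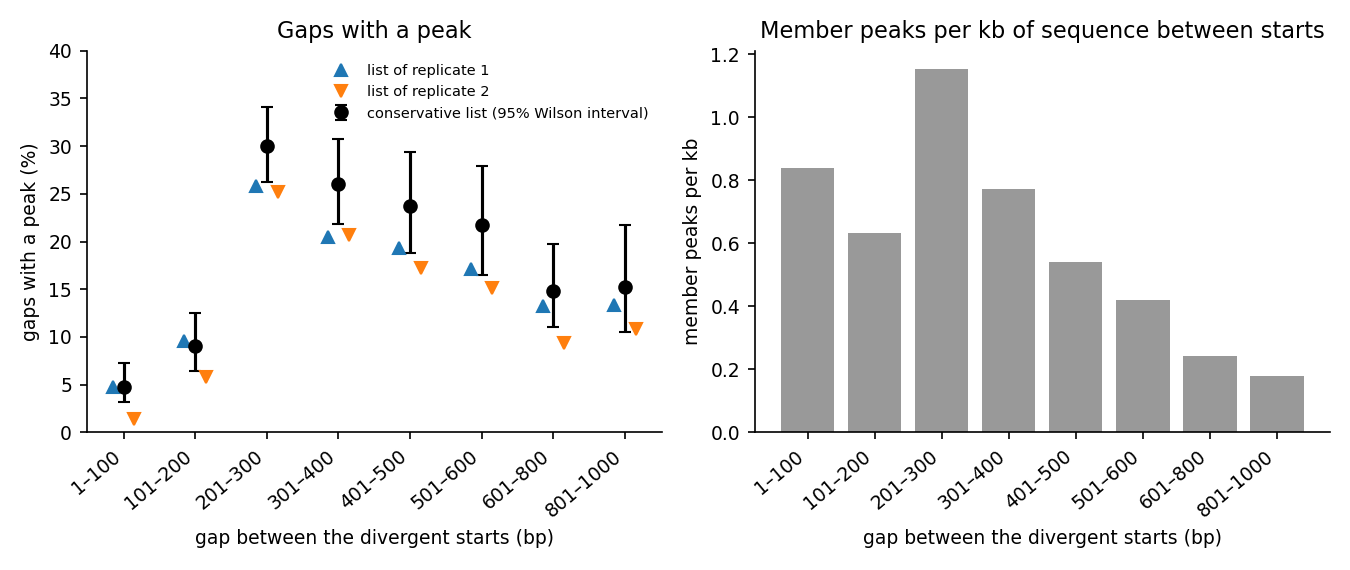
Left, percent of gaps between divergent starts that held a peak, by length of the gap in bp, for the conservative list with 95% Wilson intervals and for the lists of replicates 1 and 2. Right, member peaks per kb of sequence between the starts, for the same classes of length. Both measures were highest at 201 to 300 bp, at 30.1% and 1.15 per kb.

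The summit kept a similar distance from the nearer start whatever the length of the gap, once the gap was long enough to allow it. The median distance was 93 bp over all members, and 349 of 527, or 66.2% (62.1 to 70.1%), lay 50 to 150 bp upstream. Among peaks of unpartnered starts 223 of 643, or 34.7% (31.1 to 38.4%), lay there and the median was 165 bp. The nearest-start rule caps the distance at the middle of the gap, which unpartnered starts do not have. Members in gaps over 500 bp are less bound by this cap. These 131 members had a median of 98 bp to the nearer start, with quartiles of 52.5 and 160, and a median of 564 bp to the partner. They stood a median of 236 bp from the middle of the gap. In gaps of 201 to 300 bp, by contrast, the median distance of 96 bp left the summit a median of 35.8 bp from the middle, so it was about equally far from both starts.

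**Figure D3:**
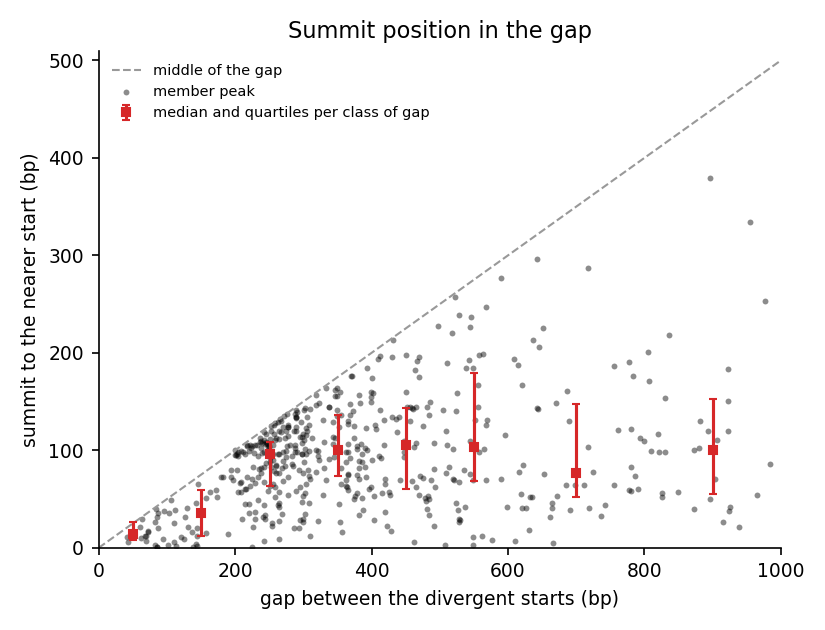
Distance in bp from the summit to the nearer start (y axis) against the gap between both starts (x axis) for the 527 member peaks, with the median and quartiles per class of gap in red and the middle of the gap dashed. Medians lie between 77 and 106 bp in every class above 200 bp while the middle of the gap moves away.

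At the limits of the rule, the members with the longest gaps were Ance/Smg5 at 984 bp and Pax/Lectin-galC1 at 977 bp, with pooled signals of 71.4 and 98.2. The peaks next outside 1 kb were Eno/Rrp40 at 1015 bp and CG9776/CG14645 at 1027 bp, with 344 and 118. No member came near the 500 bp limit, and the farthest summits were 379 bp from CG13605 and 334 bp from Ank2. The shortest gap with a member was that of Rpt5, a proteasome ATPase gene, and RanBP3 at 42 bp, where replicate 1 gave 82.1 and replicate 2 gave 56.6.

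In 18 pairs of starts there were 2 or more member summits. The strongest such pair, RpS28b and l(1)G0320, had a summit of pooled signal 425 at 40 bp from RpS28b and one of 119 at 100 bp from l(1)G0320, at opposite ends of a gap of 873 bp. The chb/Ac78C gap of 923 bp was alike, with 246 at the end of chb, a microtubule regulator, and 202 at the end of the adenylyl cyclase gene Ac78C. The summits at Hrd3/PTPMT1 shared a region of replicate 2, with the value 119 for both, and those at Xe7/Atg17 shared the regions of both replicates. In 11 of the 18 pairs the summits shared a region of a replicate in this way, and there a pair of peaks cannot be told from 1 broad region.

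Some gaps had a strong region that was not listed. The strongest was at CG18428/eIF4EHP, with 344 in replicate 1 and 281 in replicate 2, followed by pont/Sirt6 with 217 and 151, CG4297/MED15 with 103 and 98.8, and crp/pkaap with 131 and 75.3. All 4 had a global IDR below the 0.01 that the list's lowest score stands for and were nevertheless not listed. A reason was not found in the labels or files. There were 12 such regions between divergent starts and 83 on the arms. Ranked regions were present without a listed member in 898 pairs of starts, and the strongest region of each had a median pooled signal of 38.4, with quartiles of 21.9 and 56.9.

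Divergent gaps on the X chromosome held a peak less often than those on the large autosomal arms. A peak was present in 48 of 397 gaps on X, or 12.1% (9.24 to 15.7%), and in 19.2% (15.9 to 22.9%) on 2L, 17.8% (14.8 to 21.4%) on 2R, 20.7% (17.3 to 24.5%) on 3L and 21.8% (18.8 to 25.3%) on 3R. The list of replicate 1 gave 9.57% on X and 14.3 to 19.2% on the other 4, and that of replicate 2 gave 9.32% and 12.5 to 16.8%. For unpartnered starts the share was 5.67% (4.79 to 6.69%) on X and 4.36 to 4.54% on the same 4 arms. The single replicates gave 4.27% and 3.36% on X, within the 3.32 to 4.33% and 3.001 to 3.76% of the other 4, so the higher value on X was not kept. In neither replicate was X the lowest of these 5 for unpartnered starts. Chromosome 4 had no member, and its 12 gaps leave a share of up to 24.2% possible.

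Of the 16 lists of genes compared, cytoplasmic ribosomal protein genes had the highest share at members among lists with more than 5 divergent genes. Of all 5052 protein-coding genes with a divergent partner, 999 were at a member peak, or 19.8% (18.7 to 20.9%). Of 53 divergent cytoplasmic ribosomal protein genes 28 were, or 52.8% (39.7 to 65.6%). The list of replicate 1 gave 50.9% against 17% for all divergent genes, and that of replicate 2 gave 43.4% against 15.1%. At 26 of the 31 pairings of such a gene with a member, the ribosomal protein gene was the nearer one, and the median distance from its start was 41 bp. All 31 were higher in replicate 1, with a median ratio of 1.79 against 1.49 for all members.

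RpS27, of the small subunit, lay opposite the nuclear pore gene Nup37 in a gap of 144 bp, where replicate 1 gave 440 and replicate 2 gave 239, and the summit 2 bp from the RpS27 start. RpL34b, of the large subunit, lay opposite CG8132 and had 287 and 221 in the same order. RpS28b, of the small subunit, had 263 and 172. At each of these 3 peaks the ribosomal protein gene was the nearer one, while the weaker second member of the RpS28b gap lay nearer to l(1)G0320.

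Vesicle traffic genes, of the Vps, Sec and exocyst families, were at a member in 13 of 32 divergent cases, or 40.6% (25.5 to 57.7%). The lists of both single replicates gave 25%, so the share fell by over 1.5 times when 1 replicate was used alone. The highest were Vps33B, a membrane tethering factor, with 135 in replicate 1 and 120 in replicate 2, Sec6, of the exocyst, with 134.5 and 115.3, and Vps36, of ESCRT-II, with 133 and 92.7. Genes of tRNA modification were at a member in 5 of 15 divergent cases, or 33.3% (15.2 to 58.3%), in the conservative list and in both replicates' lists. They were Tcs5, Elp6 and Elp4 of Elongator, Trmt61 and Trmt6.

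Mitochondrial ribosomal protein genes were divergent in 58 of 73 cases, and 15 of the 58 were at a member, or 25.9% (16.3 to 38.4%). They included 3 of the strongest 9 members, through mRpL41, mRpS10 and mRpS23. The interval holds the 19.8% of all divergent genes, and with the lists of the single replicates the number at a member was 11 and 12 of the 58. The median pooled signal of these 15 was 126, below that of all members, so the strong ones were not typical of the list. The mitochondrial gene was the nearer one at 7 of 15, at a median distance of 131 bp from its start.

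The interval for genes of tRNA modification and those for the following lists of housekeeping genes likewise included the share of all divergent genes. Translation factors and tRNA synthetases had 12 of 51, led by eIF2Bbeta, GluProRS with 217 in replicate 1 and 178 in replicate 2, and eIF1 with 138 and 95.2. Mediator subunits, general transcription factors and RNA polymerase subunits had 13 of 55, led by Polr2B with 178 and 166, MED17 with 170 and 123, and MED27 with 155 and 143. Proteasome and COP9 signalosome genes had 8 of 31, but 5 with the list of replicate 1 and 4 with that of replicate 2, led by Prosalpha3 with 97.0 and 62.9, Rpn6 with 119 and 36.5, and Rpt5. Respiratory chain genes had 10 of 43, but 6 and 8 with those lists, led by ND-ASHI with 203 and 142, ND-MWFE with 112 and 112, and ND-51 with 126 and 64.8.

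Replication genes had 5 of 24, among them PolD2, of DNA polymerase delta, with 260 in replicate 1 and 207 in replicate 2. Mcm2, of the replicative helicase, and RPA1, of the single-strand binding complex, faced each other across a single gap of 519 bp with 76.7 and 90.1. Splicing genes had 4 of 30, led by snRNP-U1-C with 159 and 63.1, Sf3b6 with 71.2 and 62.5 and LSm1 with 75.5 and 49.8. Nuclear pore genes had 3 of 18, Nup37, Nup160 and Nup98-96, and mitochondrial import genes had 1 of 5, Tom7. Nup98-96 was counted through the mbc/Nup98-96 member, which shared a replicate's region with a stronger listed peak. The counts are small and the intervals wide, and mitochondrial import genes had 2 with the list of replicate 1 and 0 with that of replicate 2.

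Among insulator and architectural protein genes 2 of 8 divergent ones were at a member. Cp190, which encodes a partner of several insulator proteins, lay opposite CG4338 with 173 in replicate 1 and 138 in replicate 2. Dref, which encodes the DRE-binding factor, lay opposite RpL13 in a gap of 84 bp with 77.1 and 34.3. Of 76 homeobox genes 3 were divergent, and 1 of these, ro, the eye regulator rough, was at a member opposite T48 with 53.9 and 48.8. No chemoreceptor gene was at a member among 26 divergent ones, and no cuticle protein gene among 13, which allow shares of up to 12.9% and 22.8%. The list of replicate 2 alone had 1 chemoreceptor gene and no homeobox gene, and that of replicate 1 had 1 gene of the insulator list. In all, 118 of 527 members had at least 1 gene of these 16 lists. The share of all divergent gaps with such a gene was not counted, so the 118 cannot be set against a background.

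**Figure D4:**
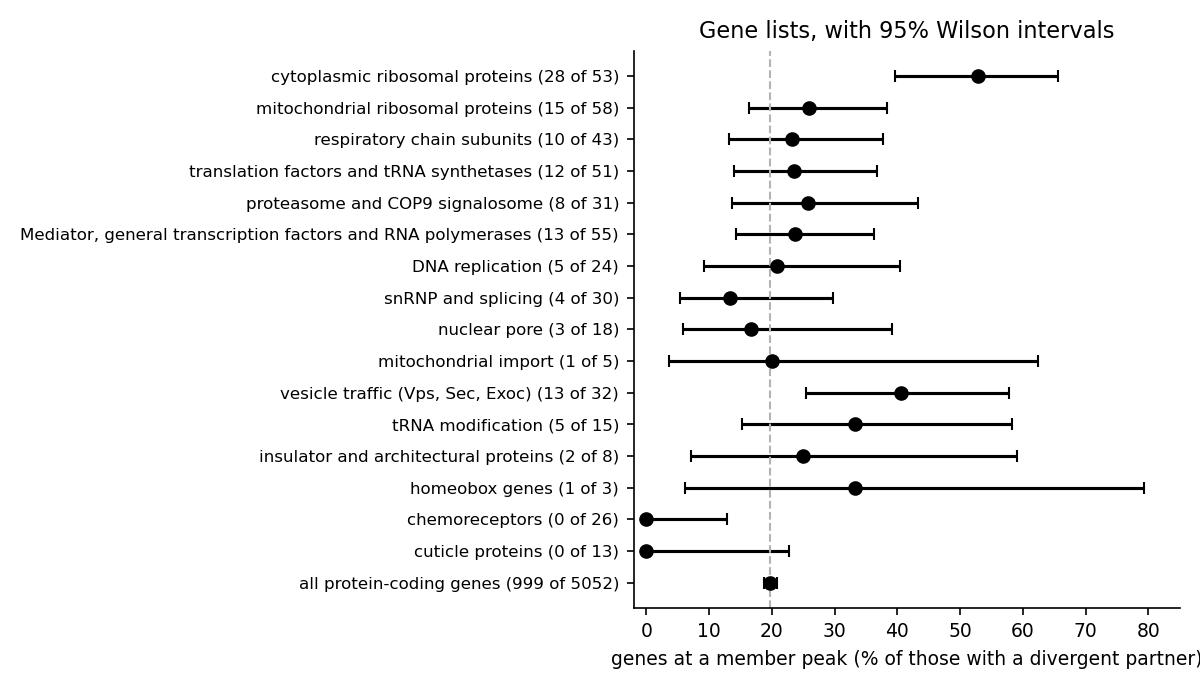
Percent of the genes of each list with a divergent partner that lie at a member peak, with 95% Wilson intervals and the counts beside the names. The dashed line marks the 19.8% of all divergent protein-coding genes, and cytoplasmic ribosomal protein genes stand above it at 52.8%.

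The sequence under the summits was rich in A and T. The 101 bp around a member summit had a mean G+C content of 33.8%, and the quartiles were 25.7 and 41.6%. Windows 250 bp to each side had 43.2%, the strongest regions of pairs without a member had 39.6%, and all promoters, taken 100 bp upstream of the start, had 39.1%. The sides were unlike. In 25 bp windows at 250 bp, members had 48.9% towards the nearer gene and 38.1% away from it. With a median summit distance of 93 bp, flanks towards the nearer gene mostly lay past its start. This limit also holds where these flanks are used for words. Peaks of unpartnered starts had 35.6%. Members of the list of replicate 1 had 35.0% and those of replicate 2 had 32.5%. The G+C content was lowest not at the summit but 50 bp from it, away from the nearer gene. There it was 28.0% in members, against 35.8% in pairs without a member. Unpartnered peaks were also lower there than at the summit, with 33.2% against 35.1%. Pairs without a member had a like dip on that side, lowest at 75 bp from the summit, with 33.9% against 40.1% at the summit.

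**Figure D5:**
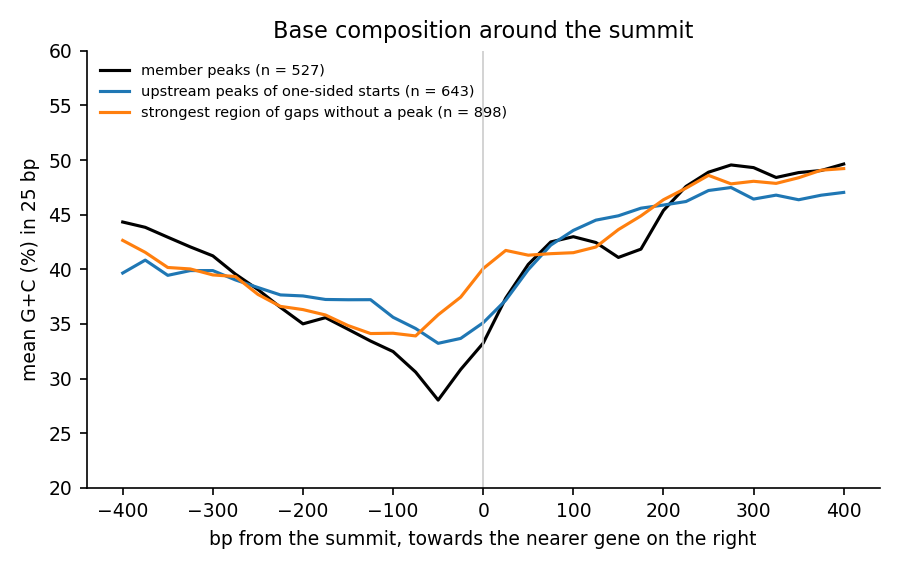
Mean G+C content in windows of 25 bp (y axis) by distance in bp from the summit (x axis), turned so that the nearer gene lies to the right, for members, peaks of unpartnered starts and the strongest region of pairs without a member. Members reach the lowest value, 28.0%, at 50 bp to the left of the summit.

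Words were sought in these 101 bp in either orientation, and CGATA lies inside the DRE word TATCGATA. CGATA was found at 153 members, 29.0% (25.3 to 33.0%), at 20.1% (17.1 to 23.3%) of peaks of unpartnered starts, in 15.8% of the flanking windows and in 19.5% of all promoters. In the strongest regions of pairs without a member it was found at 32% (29.0 to 35.1%). Members of the single replicates' lists had it at 32.4% for replicate 1 and 22.5% (18.6 to 26.8%) for replicate 2, and the latter lies below the pairs without a member. Of the pairs without a member, only the 898 with a ranked region were searched, and the other 1250 were not. Gap length was not matched between members and these pairs. The gaps between adjacent starts are a different set from these pairs. Their median was 322.5 bp in the 468 with a peak and 286 bp in the 2043 without. The DRE word was found at 6.64% (4.81 to 9.10%) of members and 6.35% of the pairs without a member, against 2.80% of unpartnered peaks and 2.27% of all promoters. The word of motif 7 behaved alike, at 11.2% of members, 10.02% of pairs without a member, 6.38% of unpartnered peaks and 3.84% of all promoters. So did AGGGCTG, known for the architectural protein ZIPIC, at 3.98, 3.34, 1.40 and 0.94% in the same order. CGATA was not most frequent at the summit itself. In windows of 51 bp it was at 18.6% of members at the summit. Its highest share, 21.3%, was 75 bp from the summit towards the nearer gene. On the same side, pairs without a member were highest at 25 bp, with 21.4%. Unpartnered peaks were highest at 50 bp on that side, with 14%.

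TATAAA was found at 25.4% (21.9 to 29.3%) of members and 22.1% of unpartnered peaks, against 16.8% (14.5 to 19.4%) of the pairs without a member and 16.3% of all promoters. With the list of replicate 1 it was at 22.9% (19.2 to 27.0%), which overlaps those pairs, and with that of replicate 2 at 25.5% (21.5 to 30.02%). The homeodomain word TAATTA was found at 12.7% (10.1 to 15.8%) of members, 8.86% of unpartnered peaks, 8.57% (6.92 to 10.6%) of pairs without a member and 8.23% of all promoters. TAATTG was found at 12, 9.33, 10.02 and 9.82% in the same order, with overlapping intervals. TAATTA was also off the summit. In windows of 51 bp it was at 6.07% of members at the summit. Its highest share, 9.68%, was 50 bp from the summit, away from the nearer gene. The TATA-box word and the homeodomain word TAATTA consist of A and T only, and members were richer in these bases than the sets they are set against. Many other words of A and T only differed more than TATAAA between members and pairs without a member. The largest difference was at TTAAAA, with 39.5% of members and 24.3% of pairs without a member.

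Base composition was therefore held within bands, chosen after the values were seen. Among windows with under 32% G+C, TAATTA was at 53 of 267 members, 19.9%, at 44 of 227 pairs without a member, 19.4%, and at 40 of 286 unpartnered peaks, 14% (10.4 to 18.5%). The difference from pairs without a member was not detectable in this band. The shares of members and unpartnered peaks differed about as much as over all windows, with overlapping intervals. Among windows with 38% G+C or more, CGATA was at 86 of 171 members, 50.3% (42.9 to 57.7%), at 37.1% (33.0 to 41.4%) of pairs without a member and at 31.3% (25.6 to 37.6%) of unpartnered peaks. In the lower bands CGATA was not more frequent at members than at those pairs, at 15% of members and 16.3% of pairs without a member under 32% G+C, and at 30.3% (21.8 to 40.5%) and 37.7% (30.9 to 45.1%) from 32 to 38%. In windows of 38% or more the DRE word was at 17% (12.1 to 23.3%), 8.47% (6.33 to 11.2%) and 7.05%, and motif 7 at 21.1% (15.6 to 27.8%), 12.7% (10.06 to 15.9%) and 9.69%, where the intervals of members and of pairs without a member overlap. The DRE word was at 4 of 267 members and 2 of 227 pairs without a member under 32% G+C, and at 2.25% of members and 7.43% of those pairs from 32 to 38%. Members of the single replicates' lists had CGATA at 49.7% and 41.3% in the band of 38% or more, and the interval of the latter, 32.5 to 50.7%, included the value of pairs without a member. The DRE word was there at 14.4% (9.85 to 20.5%) of members for replicate 1 and 13.8% (8.52 to 21.5%) for replicate 2, and both intervals overlap that of pairs without a member. Motif 7 was at 21.0% (15.5 to 27.7%) and 21.1% (14.5 to 29.7%), again with overlap. With the list of replicate 2 none of these 3 words had an interval above that of pairs without a member, and with that of replicate 1 only CGATA did.

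The words below were not compared within bands of G+C, so base composition was not held for them. Member windows had a mean G+C content of 33.8%, against 39.6% in pairs without a member. The initiator word TCAGT was at 13.9% (11.2 to 17.1%) of members, 19.7% (17.2 to 22.4%) of pairs without a member and 20.2% of unpartnered peaks. The GAGA word GAGAG was at 7.02% (5.14 to 9.53%) of members, 7.91% (6.32 to 9.86%) of pairs without a member, 10.7% of unpartnered peaks and 15.9% of all promoters. Motif 1, GGTCACACT, was at 3 members, 0.569%, and at 2.67% (1.80 to 3.95%) of pairs without a member. In the list of replicate 1 alone it was at 1.58% (0.769 to 3.23%) of members, an interval that overlaps the one of those pairs. The CTCF core AGGNGGC was at 2.09% (1.17 to 3.70%) of members, 4.23% (3.10 to 5.75%) of pairs without a member, 4.51% of unpartnered peaks and 2.83% of all promoters. For the GAGA word, the CTCF core and the 7 words that follow, the intervals of members and of pairs without a member overlapped. These 7 were motif 6, GTATNTTT, at 5.12% of members, the E-box CAGCTG at 5.503%, the Bar-type word TAAACG at 5.69% and the NK-type word CAAGTG at 6.07%, which was 3.79% with the list of replicate 2. The Zelda word CAGGTA was at 1.33%, and at 2.02% with the list of replicate 2, the Pho word GCCAT at 14% and the pyrimidine word CTTTT at 37.8% (33.7 to 42.0%). For CTTTT the lists of the single replicates gave 40.7% (36.2 to 45.4%) and 39.6% (35.0 to 44.5%), above the 31.3% (28.3 to 34.4%) of pairs without a member and close to the 39.5% of all promoters.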

How the data were processed

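Chromatin immunoprecipitation with an antibody against GFP was sequenced from 2 biological replicates of whole CG11085-eGFP embryos, per the labels. The authors deposited peak lists in dm6 coordinates, thresholded by the irreproducible discovery rate (IDR), which measures how alike the replicates rank regions. Per the deposited file lists a control file entered the peak calling, and it was not analysed here. Which aligner and caller were used is not given in the sources used here. Signal is what the authors deposited for each peak, with its scale not stated. The deposited IDR score is a whole number of at most 1000, and 830 was the lowest score in the conservative list. The −log10 of the global IDR is as the authors deposited it in the ranked file. The signal in each replicate came from that file and matched the replicate's own deposited regions at 2603 of 2610 peaks for replicate 1 and 2573 for replicate 2.

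Protein-coding TSSs came from Ensembl release 115, which left 13945 protein-coding genes on X, chromosome 4 and the arms of chromosomes 2 and 3, and sequence from the NCBI RefSeq copy of the same assembly. The 39 conservative peaks elsewhere were left out. A gap is the stretch between adjacent divergent starts at most 1 kb apart. Peaks per kb divide the peaks by the bases that meet the same rule of position. Flanks were windows of the same size centred 250 bp to each side of the summit. The 18 words and 16 gene lists, by symbol, the rule for named genes (the 12 strongest members, up to 3 genes per list, and members at the extremes of gap, ratio and limits) and the members were chosen with earlier results of these data known. No enrichment test was run. Read depth is unknown, so no interval covers it. The class rule and the word search were tested on simulated data. Python 3.11.15, pandas 2.3.3, numpy 2.4.6, scipy 1.17.1 and matplotlib 3.10.9 were used. Alternatives were other lists, windows and sets of starts, and, chosen after seeing the data, the removal of members with a further protein-coding start in the gap.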

Additional observations from a re-analysis of the deposited data

How the results depend on the processing

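With 2 samples in 1 group, the lists of the single replicates stand for leaving a replicate out. No paired analysis was possible because there is only 1 group. The number of members, 527, ran from 396 to 442 with 1 replicate and fell to 299 at a global IDR of 0.001 or below. It stayed within 1.5 times under the other alternatives, such as 436 with only the 5'-most TSS of each gene and 486 without members that have a further coding start in the gap. Members were 33.8% of upstream peaks with the partner window at 500 bp, 53.8% with it at 2 kb and 52.6% with the summit window at 250 bp. The share of gaps with a peak ran from 13.9 to 15.9% with 1 replicate and was 20.7% in the larger list and 10.7% at a global IDR of 0.001. The share of unpartnered starts ran from 3.25 to 3.93% with 1 replicate and was 5.12% in the larger list, 2.47% at a global IDR of 0.001, 5.18% with only the 5'-most TSS and 3.50% with the summit window at 250 bp. The median signal of members ran from 69.0 to 97.3 with 1 replicate and was 203 at a global IDR of 0.001, and that of unpartnered peaks ran from 67.5 to 96.1 and was 202. The replicates' signals are not pooled values, so these medians differ by construction. The median distance to the nearer start stayed between 83 and 99 bp under the 9 alternatives tried. The median gap ran from 322.5 to 341 bp with 1 replicate and was 318 bp at a global IDR of 0.001, 290 bp with a partner window of 500 bp and 387 bp with 2 kb. CGATA was at 32.4% of the members that replicate 1 alone gave and at 22.5% for replicate 2, and the cause was not tested. Word shares in windows of 25 and 100 bp to each side moved with the length searched.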
